A study of Mus musculus with 10 samples.

Results

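Astrocyte genes were followed in RNA from the ventral hippocampus (vHpc) of ovariectomised (OVX) female C57BL/6 mice. They were 36 genes chosen by name for their known enrichment in astrocytes. All 36 were among the 24421 genes of the expression table, and all 36 reached the mean of 0.5 reads per 1000000 counted (CPM) asked of a tested gene, as did 15081 genes in all. The mice were wild type (WT) or carried 1 copy of the BDNF Met allele as a knock-in (Het-Met), were ovariectomised at about 70 to 80 days of age, and after 2 weeks of recovery drank for 6 weeks either 300 nM 17β-estradiol (E2 add-back) or its vehicle of 0.1% ethanol in water. The OVX WT mice gave a vehicle-treated group (WT-Veh, 2 libraries, replicates 1 and 3) and an E2-treated one (WT-E2, 2 libraries, replicates 1 and 2), and the OVX Het-Met mice likewise (Het-Met-Veh and Het-Met-E2, 3 libraries each). The labels state 3 biological replicates per group, and 2 libraries of each OVX WT group were analysed here. A library pooled the RNA of 2 animals, so the spread between libraries is a spread between pools. Ovariectomy was shared by all 4 groups, and no mice with ovaries were among them.

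Astrocytes take up the glutamate and GABA released at synapses, turn glutamate into glutamine for neurons, buffer potassium and water through their endfeet on blood vessels, and supply lipids and cholesterol in lipoprotein particles. They are joined to each other by gap junctions and raise the intermediate filaments GFAP and vimentin when they become reactive. They carry estrogen receptors, Gfap is long known as a steroid-responsive gene of the rodent hippocampus, and astrocytes can take up BDNF, the growth factor whose activity-dependent secretion the Met allele lowers.

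Each library had 19820184 to 23267410 reads on genes, and a single read was worth at most 0.0505 CPM, so that even Hes5, the lowest of the astrocyte genes, rested on more than 100 reads in each library. Of the marker lists of other cell types, that of the choroid plexus differed most between libraries. Of its 14 genes, which mark the secretory epithelium of the ventricles, none was at 0 in any library. Their summed level was 359 to 1627 CPM in the WT-Veh group, 2759 to 3709 CPM in the WT-E2 group, 2140 to 4120 CPM in the Het-Met-Veh group and 533 to 2296 CPM in the Het-Met-E2 group. The summed level of 12 neuronal markers lay between 13729 and 14640.4 CPM and overlapped between all groups.

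The astrocyte genes together took between 1.40% and 1.57% of the reads of a library. They were summed to 13983 and 15025 CPM in the WT-Veh and 14986 and 14955 CPM in the WT-E2 group, and to 14757, 15736 and 14299 CPM in the Het-Met-Veh and 15253, 14993 and 14227 CPM in the Het-Met-E2 group. The lowest sum was found in a WT-Veh library and the highest in a Het-Met-Veh library, and the ranges of the genotypes overlapped under both treatments. In this bulk tissue a smaller number of astrocytes and less RNA per astrocyte cannot be told apart. Mean levels ran from 7.83 CPM for Hes5 to 3445 CPM for Slc1a2, the glutamate transporter GLT-1, which ranked 4 of all 15081 genes tested. Of the 36 genes, 18 were among the 1508 tested genes with the highest mean CPM. Per kilobase of exon, the order was led by secreted proteins and enzymes rather than by the transporter. Cst3, which codes for the protease inhibitor cystatin C, averaged 859.8 CPM per kilobase and Apoe, the main lipoprotein component of brain, averaged 779 CPM per kilobase. Glul (glutamine synthetase), Clu (clusterin), Aldoc (aldolase C) and Slc1a2 followed at 427, 322, 299 and 262 CPM per kilobase. Gfap averaged 87.2 CPM per kilobase and ranked 10 of 36, while Hes5 and Cbs came last at 5.75 and 4.53 CPM per kilobase. Cst3, Apoe and Clu are also made by other cells of the brain, among them microglia and choroid plexus, so their levels are not those of astrocytes alone.

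**Figure D1:**
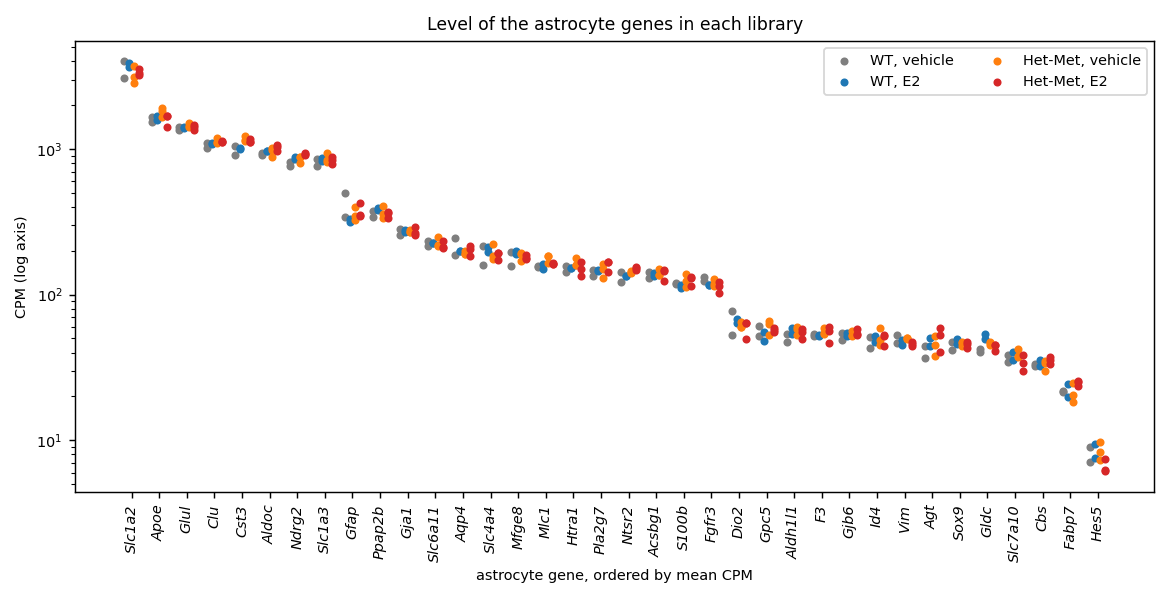
CPM of each of the 36 astrocyte genes in each of the 10 libraries on a log axis, with genes ordered by mean CPM and points coloured by group. The levels span from 6.12 CPM for Hes5 to 4006 CPM for Slc1a2, and the 10 libraries of each gene lie close together beside that span.

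The genes varied little between libraries. The ratio of the highest to the lowest library ran from 1.12 for Glul to 1.60 for Hes5, and it was below 1.3 for 21 and below 1.5 for 32 of the 36. The median within-group SD was 0.104 on the log2 scale, against 0.124 for all genes tested and 0.103 for the 10795 genes with a mean at least that of Hes5. The widest within-group SDs belonged to Agt (0.225), Gfap (0.206) and Dio2 (0.204), which code for angiotensinogen, the glial filament protein and the deiodinase that activates thyroid hormone. The narrowest were those of Glul (0.0461) and Clu (0.0477). Libraries of a group often differed. Of the 36 genes, 31 were above their own mean in replicate 2 of the Het-Met-Veh group, but 11 were in replicate 3 of the same group. In the WT-Veh group 6 genes were above their mean in replicate 1 and 19 in replicate 3, and in the WT-E2 group 13 and 19 were. In the Het-Met-E2 group 25, 25 and 9 genes were above their mean in replicates 1, 2 and 3. A Het-Met-Veh library held the highest value for 17 of the 36 genes, with 7 in replicate 1, 10 in replicate 2 and 0 in replicate 3. The share of all genes was not counted.

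**Figure D2:**
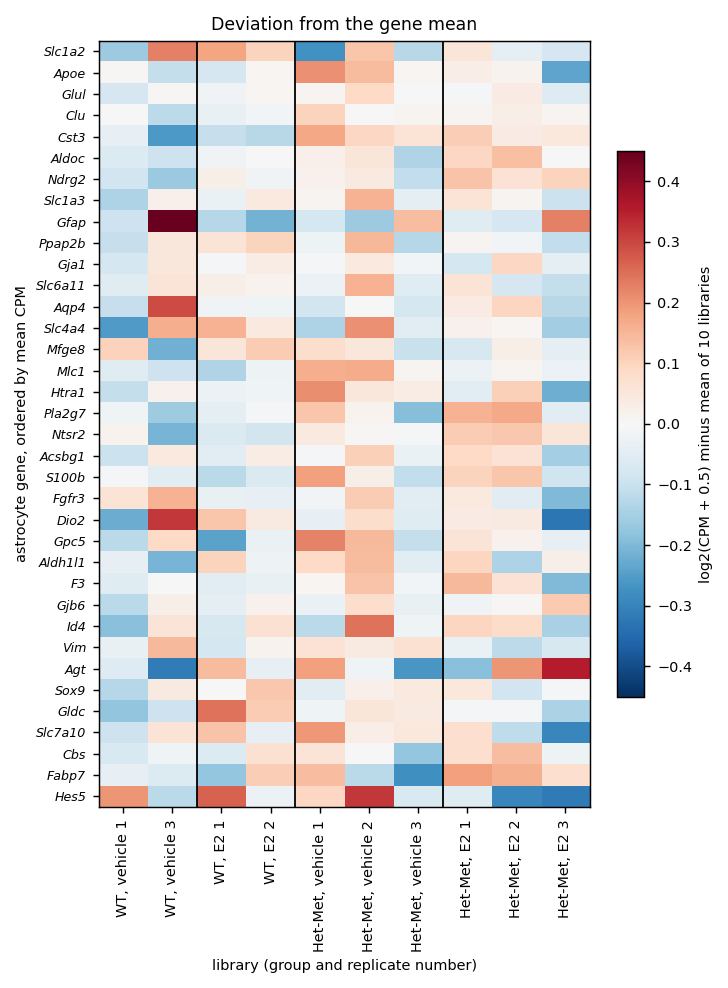
Heat map of the deviation of each astrocyte gene (rows, ordered by mean CPM) from its own mean over the 10 libraries (columns, named by group and replicate number), on the log2(CPM + 0.5) scale. Replicate 2 of the Het-Met-Veh libraries is above the mean for 31 genes and replicate 1 of the WT-Veh libraries for 6, and replicates of a group often differ in colour.

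The 4 comparisons of the groups and their interaction were then tested with limma on log2(CPM + 0.5) in all 15081 genes, and a gene was called at a Benjamini-Hochberg adjusted p under 0.05 with a fold change above 1.3. Of the 36 astrocyte genes, 0 were called in any of them by limma, and edgeR and DESeq2 on the recovered reads also called 0. The first comparison asked what E2 add-back did in OVX WT mice. There 0.0133% of all tested genes were called, and 2 of the 36 astrocyte genes (Gfap and Gldc) had an unadjusted p under 0.05 in the limma fit, where 4.04% of all genes did. The lowest limma adjusted p of an astrocyte gene was 0.536. Fold changes were positive for 28 genes and negative for 8, with a median log2 fold change of 0.035 against -0.0026 over all genes. The E2-treated libraries were all above the vehicle-treated ones for 6 genes, or 16.7% (15.6% of all genes), and all below for 3, or 8.33% (16.2% of all genes). Thus 77.8% of the astrocyte genes and 49.0% of all genes had a positive fold change, and the median turned to -0.013 without replicate 1 of the WT-Veh group and was 0.074 without its replicate 3. All 5 transporters, all 10 enzymes and all 3 transcription factors had a positive log2 fold change, from 0.017 to 0.32, while 4 of the 6 cytoskeletal and membrane genes and 3 of the 4 surface proteins had a negative one.

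The second comparison put the same question to OVX Het-Met mice. Of all tested genes 0% were called, and the 2 astrocyte genes with an unadjusted limma p under 0.05 were Apoe and Hes5, beside 5.45% of all genes. The lowest limma adjusted p of an astrocyte gene was 0.872. Fold changes were positive for 12 genes and negative for 24, with a median log2 fold change of -0.036 against 0.0045 over all genes. A positive fold change was thus found in 33.3% of the astrocyte genes and 51.8% of all genes. The median turned to 0.0019 without replicate 2 of the Het-Met-Veh group and was -0.063 without its replicate 3. The groups did not overlap for 2 genes that were higher with E2 (Ndrg2 and Ntsr2), or 5.56%, where 5.15% of all genes were. They did not overlap for 1 that was lower (Vim), or 2.78%, where 5.11% of all genes were. Set side by side, 19 genes had a higher mean with E2 in OVX WT and a lower one in OVX Het-Met mice, 3 the reverse, 9 a higher one in both and 5 a lower one in both. The shares of all genes with these patterns were not counted, so the counts describe the astrocyte genes only.

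**Figure D3:**
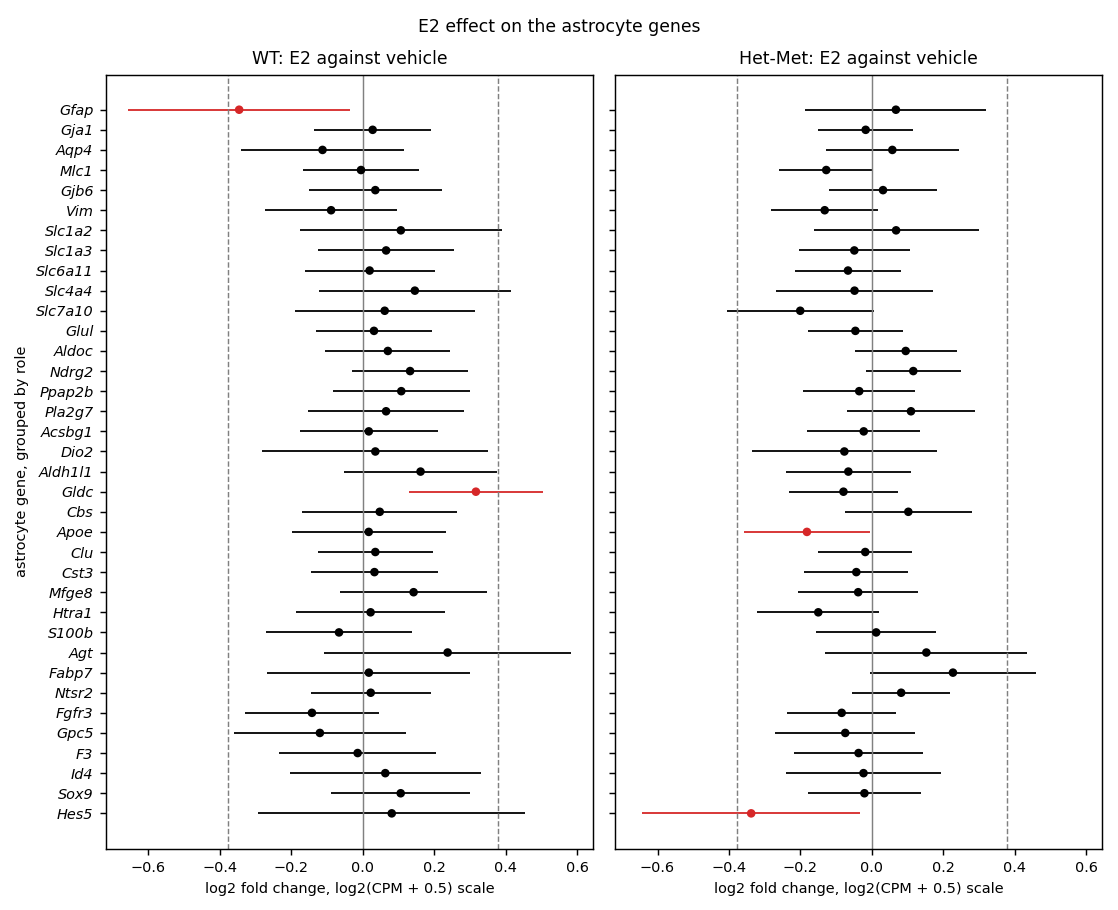
Log2 fold change of E2-treated against vehicle-treated libraries for the 36 astrocyte genes, grouped by role, in OVX WT mice (left) and OVX Het-Met mice (right), on the log2(CPM + 0.5) scale with limma 95% intervals. Dashed lines mark 1.3-fold in either direction, red marks an unadjusted limma p under 0.05, and 30 (left) and 32 (right) of the 36 intervals lie wholly between the dashed lines.

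The remaining comparisons of groups set the genotypes against each other. Under vehicle, 0.00663% of all genes were called, and 2 astrocyte genes (Cst3 and Mlc1) had an unadjusted limma p under 0.05, or 5.56%, against 10.7% of all genes. The lowest limma adjusted p was 0.331. Fold changes of OVX Het-Met over OVX WT mice were positive for 30 genes and negative for 6, with a median log2 fold change of 0.067 against 0.020 over all genes. The positive share was 83.3%, against 55.3% of all genes, and the median was 0.023 without replicate 1 of the WT-Veh group and 0.11 without replicate 3 of the Het-Met-Veh group. The groups did not overlap for 5 genes, all higher in OVX Het-Met mice (13.9%, against 14.8% of all genes higher and 9.89% lower). Under E2, 0.0265% of all genes were called, and 4 astrocyte genes (Gldc, Ntsr2, Cst3 and Hes5) had an unadjusted limma p under 0.05, or 11.1%, against 11.7% of all genes. The lowest limma adjusted p was 0.343. Fold changes were positive for 18 and negative for 18, with a median log2 fold change of 0.0011 against 0.028 over all genes. Of all genes 57.3% had a positive one, and the median turned to -0.027 when replicate 1 of the Het-Met-E2 group was left out and came to 0.038 when its replicate 3 was. The groups did not overlap for 5 genes that were higher and 7 that were lower in OVX Het-Met mice, or 13.9% and 19.4%, against 21.1% and 14.7% of all genes.

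**Figure D4:**
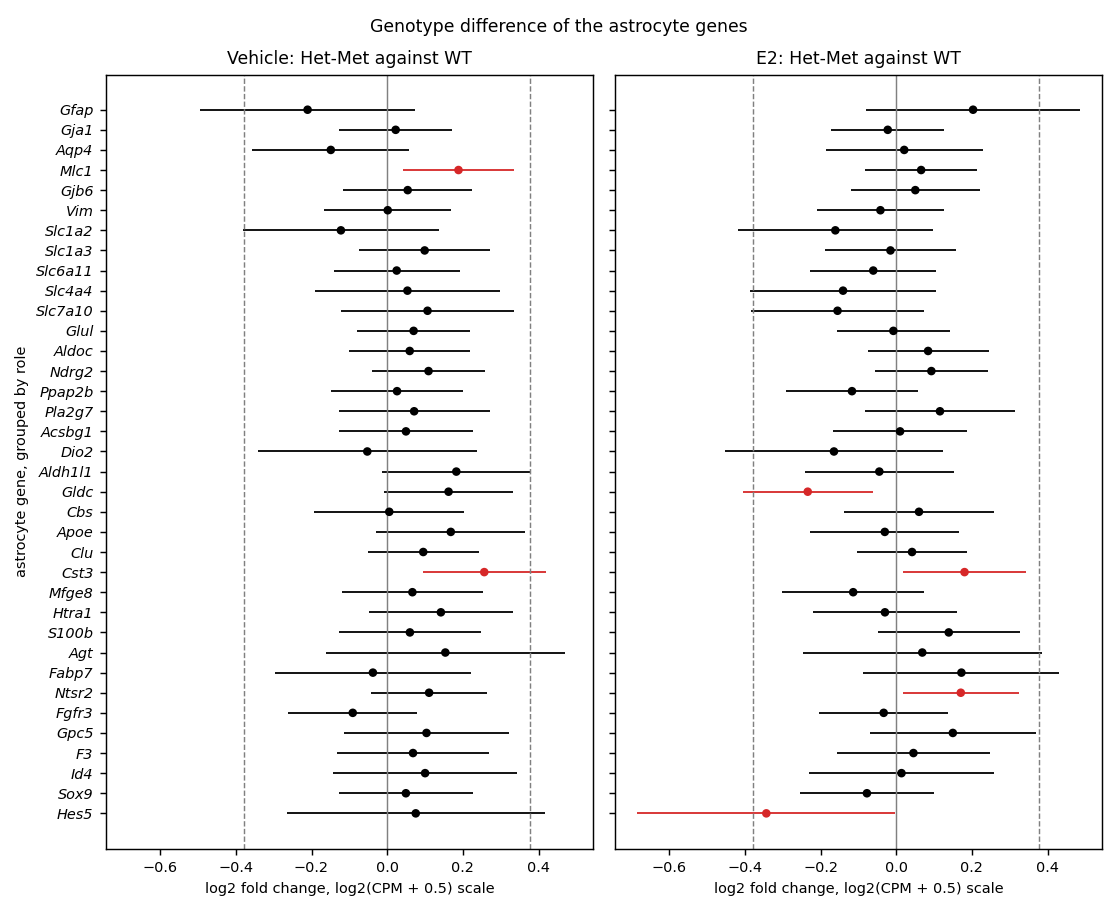
Log2 fold change of OVX Het-Met against OVX WT libraries for the 36 astrocyte genes, grouped by role, under vehicle (left) and under E2 (right), on the log2(CPM + 0.5) scale with limma 95% intervals. Dashed lines mark 1.3-fold in either direction and red marks an unadjusted limma p under 0.05, which 2 genes (left) and 4 genes (right) reached, with 30 and 27 of the 36 intervals wholly between the dashed lines.

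The interaction asked whether the E2 difference depended on genotype. Of all genes 0.0729% were called. Gfap and Gldc were the 2 astrocyte genes with an unadjusted limma p under 0.05, against 5.42% of all genes, and the lowest limma adjusted p was 0.373. The interaction was positive for 10 genes and negative for 26, with a median of -0.065 on the log2 scale against 0.0051 over all genes. It was positive for 27.8% of the astrocyte genes and 51.4% of all genes, and the median was -0.028 without replicate 1 of the WT-Veh group and -0.11 without its replicate 3. The tallies of directions for E2 in OVX WT mice, the genotypes under vehicle and the interaction share the WT-Veh libraries, so they are not independent. In replicate 1 of that group 6 of the 36 astrocyte genes were above their own mean, and in replicate 3 it was 19. The intervals also bound what could have been missed. The 95% interval of the fold change lay wholly within 1.3-fold in either direction for 30 of the 36 astrocyte genes for E2 in OVX WT mice (54.0% of all genes), 32 for E2 in OVX Het-Met mice (65.5%), 30 for the genotypes under vehicle (52.6%), 27 under E2 (52.5%) and 20 for the interaction (33.4%). Among the 10795 genes at least as high as Hes5, these shares were 74.6%, 86.9%, 71.6%, 71.5% and 46.7%, against 83.3%, 88.9%, 83.3%, 75.0% and 55.6% of the astrocyte genes.

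Among the cytoskeletal and membrane proteins, Gfap (chr11:102887336-102900912) codes for the filament protein most used to see astrocytes, and its coordinates, like those of the genes that follow, are on GRCm38 (mm10). It was at 341 and 496 CPM in the WT-Veh and 333 and 314 CPM in the WT-E2 group, and at 344, 325 and 401 CPM in the Het-Met-Veh and 350.4, 346 and 426 CPM in the Het-Met-E2 group. Replicate 3 of the WT-Veh group was the highest of all 10 libraries, both WT-E2 libraries were below both vehicle-treated ones, and the OVX Het-Met groups overlapped. Without E2 the WT mean was 418 ± 109 CPM (SD, n = 2), against 324 ± 13.4 CPM (SD, n = 2) with it. The log2 fold change with E2 in OVX WT mice was -0.35 (SE 0.15, limma adjusted p = 1.00), with a 95% interval of -0.66 to -0.036. It was -0.076 when replicate 3 of the WT-Veh group was left out and -0.62 when replicate 1 was, so a single library decided its size. In OVX Het-Met mice the log2 fold change was 0.067 (SE 0.12, limma adjusted p = 0.988). The difference between the genotypes was 0.41 (SE 0.19, limma adjusted p = 0.884), and 0.14 without replicate 3 of the WT-Veh group and 0.68 without its replicate 1. Vim, the filament protein vimentin, ran from 44.1 to 53.1 CPM and was lowest in the Het-Met-E2 group, with all 3 of its libraries below the vehicle-treated ones (log2 fold change -0.13, limma adjusted p = 0.929).

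The promoter of Gfap is shown with that of Gldc, the astrocyte gene with the lowest p for E2 in OVX WT mice, because E2 acts through receptors that bind DNA. Both are from RefSeq on GRCm38.p6, are read 5′ to 3′ on the minus strand over 270 bases, and have the first base of the gene at base 251. That of Gfap is chr11:102897181-102897450, inside the GENCODE span of the gene, and that of Gldc is chr19:30175422-30175691. Capitals mark matches to any of 6 motifs searched on both strands.
Gfap promoter: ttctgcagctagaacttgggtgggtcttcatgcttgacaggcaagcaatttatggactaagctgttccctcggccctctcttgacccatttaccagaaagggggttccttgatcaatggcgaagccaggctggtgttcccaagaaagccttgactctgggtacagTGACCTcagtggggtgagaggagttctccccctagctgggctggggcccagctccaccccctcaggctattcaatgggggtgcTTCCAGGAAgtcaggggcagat
Gldc promoter: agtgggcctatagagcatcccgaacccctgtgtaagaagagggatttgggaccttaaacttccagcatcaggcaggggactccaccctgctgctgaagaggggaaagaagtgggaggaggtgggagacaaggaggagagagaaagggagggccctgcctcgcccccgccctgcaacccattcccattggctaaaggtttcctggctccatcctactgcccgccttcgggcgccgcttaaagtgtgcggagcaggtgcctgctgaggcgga
In Gfap the capitals at bases 166 to 171 match the half-site AGGTCA of an estrogen response element, read on the other strand, and those at bases 249 to 257 match TTCCNGGAA, the motif of STAT factors. No capitals stand in Gldc. Over promoters of 250 bases before to 50 after the start, 33 of the 36 genes matched the RefSeq table, with 40 promoters of 32851. The full element GGTCANNNTGACC was in 0 of the 40 and in 0.0700% of all promoters, and its half-site was in 9 of 40 (22.5%) and in 16.3% of all promoters. TTCCNGGAA was in 3 of 40 (Gfap, Aldoc and Agt) and in 1.15% of all promoters. TATAAA was in 8 of 40 and 13.6% of all, TTGGCA, an NFI half-site, in 3 of 40 and 14.1%, and ACAATGG, a SOX motif, in 1 of 40 (Hes5) and 3.66%. The half-site and the full element were searched separately, so a half-site could overlap a full element or lie apart from it. Aqp4, Sox9 and Clu were not matched.

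Aqp4, the water channel of the endfeet, was at 187 and 246 CPM in the WT-Veh and 199 and 198 CPM in the WT-E2 group, and at 190.0, 201 and 191 CPM in the Het-Met-Veh and 207, 215 and 184 CPM in the Het-Met-E2 group. As with Gfap, replicate 3 of the WT-Veh group was the highest of the 10, and all groups compared overlapped. For the genotypes under vehicle the log2 fold change was -0.15 (SE 0.097, limma adjusted p = 0.596). Gja1 (chr10:56377330-56402513) codes for connexin 43, the main gap junction protein of astrocytes. It was at 257 and 281 CPM and 270.4 and 278 CPM in the WT-Veh and WT-E2 groups and at 270.2, 280.0 and 269 CPM and 257, 289 and 264 CPM in the Het-Met-Veh and Het-Met-E2 groups. The 4 groups overlapped, and its log2 fold change lay between -0.023 and 0.028 in the 4 comparisons of groups. Gjb6, connexin 30, ran from 49.1 to 58.2 CPM, and its log2 fold changes in these comparisons lay between 0.031 and 0.054.

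Mlc1 (chr15:88955884-88979007) codes for a membrane protein of the endfeet whose loss causes a leukodystrophy. Its level was 158 and 154 CPM in the WT-Veh and 149 and 162 CPM in the WT-E2 group, and 184, 184 and 166 CPM in the Het-Met-Veh and 161, 166 and 161 CPM in the Het-Met-E2 group. Under vehicle all 3 Het-Met libraries were above both WT libraries, and under E2 the genotypes overlapped. The log2 fold change between genotypes under vehicle was 0.19 (SE 0.069, limma adjusted p = 0.406), and under E2 it was 0.066 (SE 0.069, limma adjusted p = 0.737).

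The 5 transporters clear transmitters and ions from the extracellular space. Slc1a2 (chr2:102658659-102790784), the glutamate transporter GLT-1, was at 3062 and 4006 CPM in the WT-Veh and 3872 and 3672 CPM in the WT-E2 group, and at 2837, 3735 and 3142 CPM in the Het-Met-Veh and 3555, 3322 and 3247 CPM in the Het-Met-E2 group. The vehicle-treated libraries were spread widely in both genotypes, and under E2 the 3 Het-Met libraries were below both WT libraries. That difference was -0.16 on the log2 scale (SE 0.12, limma adjusted p = 0.618). Slc1a3 (chr15:8634124-8710764) codes for GLAST, the other glutamate transporter of astrocytes. It was at 762 and 854 CPM and 822 and 867 CPM in the WT-Veh and WT-E2 groups and at 847, 937 and 814 CPM and 876, 847 and 785 CPM in the Het-Met-Veh and Het-Met-E2 groups. Its groups overlapped, and the log2 fold change between genotypes under vehicle was 0.099 (SE 0.081, limma adjusted p = 0.678).

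The GABA transporter Slc6a11 ran from 207 to 249 CPM and the sodium bicarbonate cotransporter Slc4a4 from 161 to 221 CPM. Slc4a4 followed Slc1a2 under E2, with every Het-Met library below both WT libraries (log2 fold change -0.14, limma adjusted p = 0.650). Slc7a10, which carries D-serine and other small amino acids, ran from 29.9 to 42.1 CPM and was lowest in replicate 3 of the Het-Met-E2 group. Its log2 fold change with E2 in OVX Het-Met mice was -0.20 (SE 0.096, limma adjusted p = 0.916), and 17.9% of its exon bases overlap those of Lrp3 on the opposite strand. Under E2, the log2 fold change of Het-Met over WT was negative for all 5 transporters, from -0.16 to -0.015. It was negative for 18 of the 36 astrocyte genes and positive for 57.3% of all genes. Of the 5 transporters 0 had an unadjusted limma p under 0.05.

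Of the 10 enzymes and related proteins of metabolism, Glul (chr1:153899944-153909723), which makes glutamine from the glutamate taken up, had the narrowest range. It was at 1346 and 1424 CPM in the WT-Veh and 1404 and 1426 CPM in the WT-E2 group, and at 1432, 1508 and 1421 CPM in the Het-Met-Veh and 1408, 1455 and 1360.3 CPM in the Het-Met-E2 group. All groups overlapped, and the log2 fold changes of the 4 comparisons lay between -0.046 and 0.070. Aldh1l1 (chr6:90486427-90600203), a folate enzyme widely used to mark astrocytes, was at 53.3 and 47.2 CPM and 58.6 and 53.8 CPM in the WT-Veh and WT-E2 groups. In OVX Het-Met mice it was at 58.1, 60.2 and 52.8 CPM with vehicle and 58.4, 49.6 and 55.6 CPM with E2. The WT-E2 libraries were above both vehicle-treated ones, and the other groups compared overlapped. Its log2 fold change was 0.16 for E2 in OVX WT mice (SE 0.10, limma adjusted p = 1.00) and 0.18 for the genotypes under vehicle (SE 0.092, limma adjusted p = 0.493). Other genes share 13.4% of its exon bases.

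Gldc (chr19:30098447-30175429) codes for glycine decarboxylase, the mitochondrial enzyme that breaks down glycine. It was at 40.2 and 42.6 CPM in the WT-Veh and 54.0 and 49.4 CPM in the WT-E2 group, and at 44.9, 47.3 and 46.9 CPM in the Het-Met-Veh and 45.2, 45.3 and 41.2 CPM in the Het-Met-E2 group. Both WT-E2 libraries were above the other 8 libraries, whereas the OVX Het-Met groups overlapped. The means were 41.4 ± 1.74 CPM (SD, n = 2) against 51.7 ± 3.28 CPM (SD, n = 2) in the WT-Veh and WT-E2 groups, and 46.4 ± 1.31 CPM (SD, n = 3) against 43.9 ± 2.35 CPM (SD, n = 3) in the Het-Met-Veh and Het-Met-E2 groups. With E2 in OVX WT mice the log2 fold change was 0.32 (SE 0.088, limma adjusted p = 0.536), or 1.25-fold, and in OVX Het-Met mice it was -0.079 (SE 0.072, limma adjusted p = 0.971). The difference of these was -0.40 (SE 0.11, limma adjusted p = 0.373). Between the genotypes Gldc was higher in all 3 Het-Met libraries under vehicle (log2 fold change 0.16, limma adjusted p = 0.483) and lower in all 3 under E2 (log2 fold change -0.23, SE 0.080, limma adjusted p = 0.343). Leaving out each library in turn gave log2 fold changes of 0.25 to 0.38 for E2 in OVX WT mice and of -0.46 to -0.33 for the interaction. The directions matched those of the choroid plexus markers, whose median log2 fold change was 1.98 for E2 in OVX WT mice and -2.98 for the interaction, with an unadjusted limma p under 0.05 for 14 of 14 in each. The part of these markers in the Gldc values was not tested.

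The other members of this role were described by ranges. Aldoc, the glycolytic aldolase of brain, ran from 887 to 1071 CPM, and Ndrg2, a hydrolase-fold protein abundant in astrocytes, from 769 to 945 CPM. Ndrg2 was the 1 member whose E2-treated libraries were all above the vehicle-treated ones in both genotypes, with log2 fold changes of 0.13 in OVX WT (limma adjusted p = 1.00) and 0.12 in OVX Het-Met mice (limma adjusted p = 0.929). It was singled out after its values were seen. Of all genes, 15.6% were so in OVX WT and 5.15% in OVX Het-Met mice, and the share with both was not counted. Ppap2b, a lipid phosphate phosphatase, ran from 333 to 404 CPM, Pla2g7, which inactivates platelet-activating factor, from 131 to 168 CPM, and Acsbg1, an acyl-CoA synthetase, from 124 to 149 CPM. Dio2 ran from 49.3 to 77.4 CPM, with its highest value in replicate 3 of the WT-Veh group and its lowest in replicate 3 of the Het-Met-E2 group. Cbs, which makes cystathionine from homocysteine, ran from 30.0 to 37.3 CPM, with log2 fold changes between 0.0054 and 0.10 in the 4 comparisons.

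Among the 8 secreted and binding proteins, Apoe (chr7:19696109-19699188) packs the lipids that astrocytes export. It was at 1668 and 1544 CPM in the WT-Veh and 1575 and 1672 CPM in the WT-E2 group, and at 1915, 1832 and 1670.1 CPM in the Het-Met-Veh and 1695, 1679.7 and 1410.3 CPM in the Het-Met-E2 group. All 3 Het-Met-Veh libraries were above both WT-Veh libraries, and the Het-Met-E2 libraries overlapped the vehicle-treated ones, with replicate 3 of the Het-Met-E2 group the lowest of all 10. With E2 in OVX Het-Met mice the log2 fold change was -0.18 (SE 0.083, limma adjusted p = 0.878), and it was -0.096 without that library. In OVX WT mice it was 0.017 (SE 0.10, limma adjusted p = 1.00), and the interaction was -0.20 (SE 0.13, limma adjusted p = 1.00).

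Cst3 (chr2:148871722-148875692) codes for cystatin C, an inhibitor of cysteine proteases. It was at 1057 and 908 CPM in the WT-Veh and 1009 and 994 CPM in the WT-E2 group, and at 1223, 1156 and 1132 CPM in the Het-Met-Veh and 1172, 1114 and 1120.3 CPM in the Het-Met-E2 group. All 6 Het-Met libraries were above all 4 WT libraries, and the lowest value was that of replicate 3 of the WT-Veh group. Of all genes, 14.8% were higher without overlap in OVX Het-Met mice under vehicle and 21.1% under E2. The share with both was not counted. The means were 982 ± 105 CPM (SD, n = 2) against 1170.5 ± 47.3 CPM (SD, n = 3) in the WT-Veh and Het-Met-Veh groups, and 1002 ± 10.5 CPM (SD, n = 2) against 1135 ± 31.8 CPM (SD, n = 3) in the WT-E2 and Het-Met-E2 groups. The log2 fold change between genotypes was 0.26 under vehicle (SE 0.076, limma adjusted p = 0.331) and 0.18 under E2 (SE 0.076, limma adjusted p = 0.393). Under vehicle, leaving out replicate 3 of the WT-Veh group gave 0.15 and leaving out replicate 1 gave 0.37. Microglia also make cystatin C. Of the 11 microglial markers, none of which was at 0, 9 were higher in OVX Het-Met mice under vehicle and 11 under E2, and 2 in each had an unadjusted limma p under 0.05. Of all genes, 55.3% under vehicle and 57.3% under E2 were higher, and 10.7% and 11.7% had such a p. The summed level of the microglial markers was 533 to 538 CPM in the WT-Veh and 503 to 519 CPM in the WT-E2 group. It was 529 to 595 CPM in the Het-Met-Veh and 525 to 571 CPM in the Het-Met-E2 group. The 14 choroid plexus markers, another source of Cst3, all had a higher mean in OVX Het-Met mice under vehicle and a lower one under E2. The part of these cells in the Cst3 values was not tested.

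S100b (chr10:76253853-76261159), a calcium-binding protein released by astrocytes, was at 121 and 117 CPM in the WT-Veh and 112 and 116 CPM in the WT-E2 group, and at 138, 124 and 113 CPM in the Het-Met-Veh and 130.3, 133 and 114 CPM in the Het-Met-E2 group. In OVX WT mice both E2-treated libraries were below the vehicle-treated ones by little (log2 fold change -0.066, limma adjusted p = 1.00), and the other groups compared overlapped. Clu ran from 1017 to 1183 CPM and Mfge8, a bridging protein for the uptake of dying cells, from 158 to 199 CPM. Htra1, a secreted protease, ran from 133 to 179.6 CPM and was higher in all 3 Het-Met-Veh libraries than in both WT-Veh libraries (log2 fold change 0.14, limma adjusted p = 0.578). Agt ran from 36.8 to 58.7 CPM, with replicate 3 of the Het-Met-E2 group highest and replicate 3 of the WT-Veh group lowest. Fabp7, a fatty acid binding protein of radial glia and astrocytes, ran from 18.4 to 25.4 CPM, and its log2 fold change with E2 in OVX Het-Met mice was 0.23 (SE 0.11, limma adjusted p = 0.916).

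Ntsr2 (chr12:16653382-16660227), a neurotensin receptor, was the surface protein with an unadjusted limma p under 0.05. It was at 143 and 122 CPM in the WT-Veh and 135 and 133 CPM in the WT-E2 group, and at 146, 142 and 141 CPM in the Het-Met-Veh and 153, 154 and 147 CPM in the Het-Met-E2 group. The 3 Het-Met-E2 libraries were the highest of all 10, above both WT-E2 libraries and the 3 Het-Met-Veh libraries. The log2 fold change between genotypes under E2 was 0.17 (SE 0.072, limma adjusted p = 0.388), and with E2 in OVX Het-Met mice it was 0.082 (SE 0.064, limma adjusted p = 0.967). Fgfr3, a receptor for fibroblast growth factors, ran from 103 to 132 CPM (13.9% of its exon bases overlap a gene on the opposite strand) and was lower in both E2-treated than in both WT-Veh libraries (log2 fold change -0.14, limma adjusted p = 1.00). Gpc5, a heparan sulfate proteoglycan, ran from 48.0 to 66.4 CPM, and F3, the tissue factor that starts blood clotting, from 46.9 to 59.5 CPM. Neither had an unadjusted limma p under 0.05 in any comparison.

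Hes5 (chr4:154960923-154962371), a repressor induced by Notch, was the lowest of the 3 transcription factors. It was at 8.98 and 7.09 CPM in the WT-Veh and 9.42 and 7.61 CPM in the WT-E2 group, and at 8.30, 9.79 and 7.37 CPM in the Het-Met-Veh and 7.44, 6.22 and 6.12 CPM in the Het-Met-E2 group. All 3 Het-Met-E2 libraries were below both WT-E2 libraries, and they overlapped the Het-Met-Veh libraries. The log2 fold change with E2 in OVX Het-Met mice was -0.34 (SE 0.14, limma adjusted p = 0.872), and that between genotypes under E2 was -0.34 (SE 0.16, limma adjusted p = 0.425). Leaving out replicate 1 of the WT-E2 group took the second to -0.20 and leaving out its replicate 2 took it to -0.49. Of its exon bases 31.8% overlap those of Gm20421 on the opposite strand. Sox9, a factor that specifies astrocytes, ran from 41.9 to 49.9 CPM, and Id4, an inhibitor of basic helix-loop-helix factors, from 43.3 to 58.6 CPM, each with its lowest value in replicate 1 of the WT-Veh group.

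**Figure D5:**
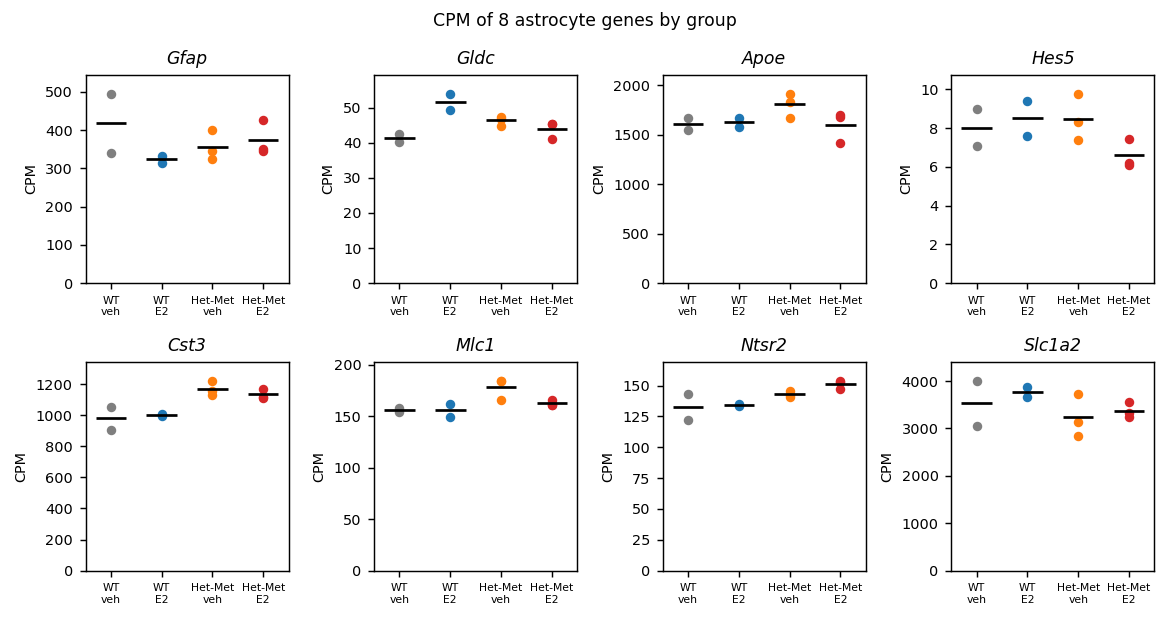
CPM of 8 astrocyte genes in each library by group (axes start at 0), with a point for each library and a horizontal line at the group mean. They are the 7 with an unadjusted limma p under 0.05 in any comparison and Slc1a2, and both WT-E2 libraries of Gldc lie above the other 8 while all 6 Het-Met libraries of Cst3 lie above all 4 WT libraries.

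Other genes of astrocytes were counted in the same way. Of 40 further astrocyte-enriched genes, all tested, 0 were called in any comparison, and 2, 1, 6, 2 and 0 had an unadjusted limma p under 0.05 for E2 in OVX WT mice, E2 in OVX Het-Met mice, the genotypes under vehicle, the genotypes under E2 and the interaction, against 4.04%, 5.45%, 10.7%, 11.7% and 5.42% of all genes. The 3 with the lowest p were Fam107a, Mt3 and Megf10. Fam107a, an actin-binding protein, was at 410.1 and 453 CPM in the WT-Veh and 529 and 517 CPM in the WT-E2 group. The E2-treated libraries were the higher ones (log2 fold change 0.28, SE 0.090, limma adjusted p = 0.833). The zinc-binding metallothionein Mt3 was at 176 and 165 CPM in the WT-E2 and 205, 203 and 189 CPM in the Het-Met-E2 group, higher in every Het-Met library (log2 fold change 0.22, SE 0.075, limma adjusted p = 0.343). Megf10, a receptor through which astrocytes engulf synapses, was at 30.3 and 34.7 CPM in the WT-Veh and 25.0, 27.3 and 27.0 CPM in the Het-Met-Veh group, lower in every Het-Met library (log2 fold change -0.29, SE 0.10, limma adjusted p = 0.368).

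Genes that mark reactive astrocytes were counted in a general list (9 of 11 tested), a list of the A1 state described after inflammation (11 of 11) and a list of the A2 state described after ischemia (9 of 12). None of the 3 lists held a called gene in any comparison. At an unadjusted limma p under 0.05 the general list held 0, 1, 0, 1 and 1 genes and the A1 list 1, 3, 2, 3 and 1, in the same order of comparisons. Of the general list, Cp (ceruloplasmin) was at 25.2 and 23.9 CPM in the WT-E2 and 22.4, 16.6 and 18.3 CPM in the Het-Met-E2 group, lower in every Het-Met library (log2 fold change -0.36, SE 0.11, limma adjusted p = 0.340). Choroid plexus also makes ceruloplasmin, and its 14 markers all had a lower mean in the Het-Met-E2 than in the WT-E2 group, with a median log2 fold change of -1.57. Their part in the Cp values was not tested. The summed level of the A1 list was 148 to 155 CPM in the WT-Veh and 151 to 152 CPM in the WT-E2 group, and 168 to 169 CPM in the Het-Met-Veh and 146 to 154 CPM in the Het-Met-E2 group. The Het-Met-Veh libraries thus had the highest sums of this list. A sum of CPM is weighted to the genes of high level. In that group Fkbp5 averaged 59.5 CPM and H2-D1 24.3 CPM, but Gbp2 4.69 CPM and H2-T23 2.76 CPM. For E2 in OVX Het-Met mice the list was split, with 5 genes higher and 6 lower and a median log2 fold change of -0.061. An unadjusted limma p under 0.05 was found for 3 of the 11, all lower with E2, against 5.45% of all genes in either direction. In the same comparison 14 of 14 choroid plexus, 7 of 8 ependymal and 6 of 9 meningeal markers had a lower mean with E2, with an unadjusted limma p under 0.05 for 11, 4 and 2 of them. The part of these markers in the A1 values was not tested.

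Those 3 were Amigo2, Fkbp5 and H2-D1. Amigo2, an adhesion protein that neurons make as well, was at 37.7, 32.8 and 35.3 CPM with vehicle and 28.4, 28.2 and 30.4 CPM with E2 in OVX Het-Met mice (log2 fold change -0.28, SE 0.079, limma adjusted p = 0.710). Fkbp5, a chaperone induced by glucocorticoids in many cells, was at 57.1, 59.2 and 62.1 CPM with vehicle and 47.7, 55.2 and 46.2 CPM with E2 (log2 fold change -0.26, SE 0.083, limma adjusted p = 0.748). For both genes the E2-treated libraries were all below the vehicle-treated ones. H2-D1, a major histocompatibility protein with close copies in the genome, so that its counts are uncertain, was at 26.4, 24.1 and 22.4 CPM with vehicle and 23.4, 17.7 and 19.2 CPM with E2, and these overlapped (log2 fold change -0.27, SE 0.12, limma adjusted p = 0.872). Of the A2 list 0 genes had an unadjusted limma p under 0.05 in any comparison, against 4.04% to 11.7% of all genes.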

How the data were processed

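RNA of the vHpc was sequenced by the authors as 75-bp single-end reads from a stranded kit and aligned to mm10 with TopHat2. Reads were counted with featureCounts, as the name of the deposited table gives it, and its version, strand setting and annotation are not given in the sources used here. The authors deposited CPM per gene symbol, and whole reads were recovered from 100% of them (tolerance 0.01). Depth was 19820184 to 23267410 reads on genes, and more reads narrow counting error only. Gene positions and exon lengths came from GENCODE vM21, where Ppap2b is named Plpp3.

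Values were log2(CPM + 0.5), with a minimum mean of 0.5 CPM. limma 3.58.1 (R 4.3.3) fitted the 4 group means with eBayes and a trend (degrees of freedom 8.90 prior and 6 residual). Tests were two-sided and adjusted over 15081 genes by Benjamini-Hochberg. Mice of a group came from several litters, but the litters behind each pool are not given in the sources used here, so p-values measure the spread between these pools. Alternatives were other pseudocounts (0.1, 1), a stricter minimum (2 CPM) or none, median-of-ratios and quantile scaling, the libraries compared alone, a block for the replicate number, edgeR 4.0.16 and DESeq2 1.42.0 on the recovered reads, no fold limit, and each library left out. The procedure was tested on simulated data. The members and the lists were chosen with earlier results of these data known. Full values were given for 8 core markers and for each member called or among the 4 with the lowest unadjusted p under 0.05 in a comparison, and other members by range.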

Additional observations from a re-analysis of the deposited data

How the results depend on the processing

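The number of astrocyte genes called was 0 in every comparison under every alternative run, edgeR and DESeq2 on the recovered reads included. Over all genes limma called 2, 0, 1, 4 and 11 for E2 in WT, E2 in Het-Met, the genotypes under vehicle, the genotypes under E2 and the interaction, edgeR 2, 0, 1, 14 and 13, and DESeq2 14, 6, 34, 29 and 37. The number with an unadjusted p under 0.05 was small and moved by over 1.5 times in places. For E2 in OVX WT mice it was 1 in place of 2 with no filter, with a block for the replicate number and with DESeq2, and 1 to 4 when a library was left out. For E2 in OVX Het-Met mice it was 1 when the 2 groups compared were fitted alone, and 0 to 4 with a library left out. Between the genotypes it was 1 in place of 2 under vehicle when fitted alone, and 2 in place of 4 under E2 with no filter and with median-of-ratios scaling. Leaving out a library gave 1 to 9 under vehicle and 0 to 4 under E2. Under vehicle and for the interaction the highest count came without replicate 1 of the WT-Veh group. Few astrocyte genes were above their mean in that library, and 1 library is left in the group without it. For the interaction it was 1 with no filter, with the replicate block and with DESeq2, and 1 to 6 with a library left out. The cause was not tested. These counts were not set beside the share of all genes in the same setting, so they show only how stable each count was. The median log2 fold change of the 36 genes moved by less than 0.079 in every setting. That limit is the pooled within-group SD of the library median of the 36 genes, log2 scale. Each main median was itself smaller than 0.079 in size, so a median could fall to 0 and stay within the limit. With a library left out the median ran from -0.013 to 0.074 for E2 in OVX WT mice and -0.063 to 0.0019 for E2 in OVX Het-Met mice. It ran from 0.023 to 0.11 for the genotypes under vehicle, -0.027 to 0.038 under E2 and -0.11 to -0.028 for the interaction. Its sign could thus turn in both E2 comparisons and between the genotypes under E2. Single genes were refitted only for the 12 results of a gene in a comparison with an unadjusted p under 0.05 in the main fit. Of the 238 alternative fits of these, 188 kept their side of the threshold and 50 lost it, with 0 reversals of direction. None could gain the threshold, and some settings left out a library outside the comparison. The replicate numbers showed no pairing in the correlation of deviations. It ran from -0.17 to 0.083 over 12 pairs of the same number and from -0.15 to 0.17 over 25 pairs of different numbers. In a group of 2 libraries the deviations mirror each other, so these values are not independent and cannot exclude a shared batch. Depth limits Hes5 most among the members, and 2 libraries per OVX WT group limit every comparison with them.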
